A study of Arabidopsis thaliana with 12 samples.

Results

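The cysteine-rich receptor-like kinases (CRKs) of Arabidopsis thaliana were followed across 12 RNA-seq libraries of whole seedlings. They were taken as 42 loci named CRK1 to CRK42 and CRK45, without CRK35, among the 32744 genes of the count tables. A CRK is a single-pass membrane protein with cysteine-rich DUF26 repeats outside the cell and a serine/threonine kinase domain inside it. Several members act in immune and oxidative signalling: CRK2 phosphorylates the NADPH oxidase RBOHD, CRK28 associates with the co-receptor BAK1, and CRK4, CRK6 and CRK36 associate with the flagellin receptor FLS2. Many CRK genes are known to be induced by salicylic acid, and some trigger hypersensitive-like cell death when overexpressed.

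The study compared wild type with snap33, which the labels describe as a T-DNA knock-out of the plasma membrane SNARE gene SNAP33, at 5 d and at 12 d, with 3 libraries for each of the 4 groups. Untreated plants of both genotypes were grown on plates in long days and harvested whole. Libraries of the same number within an age share a harvest day, and by the labels the 3 libraries of a group were harvested on successive days. The labels give each group 1 planting day and do not say whether the replicates were sown or grown apart. The p-values therefore cover the variation among these libraries alone, which includes their harvest days. By their date labels, the snap33 plants named 12 d were planted on day 9 of the month and harvested 32 to 34 days later. For every other group the planting day was 29 of that month, with harvest after 5 to 7 days (5 d) or after 12 to 14 days (12 d). Groups keep the ages of their titles here. Age since planting cannot be told apart from genotype in the 12 d comparison, nor from age label within snap33, if those dates are right. The genotype field of the wild-type libraries also carries the words of a knock-out, so the targeted gene was checked first. SNAP33 had 95, 109 and 95 counts in wild type at 5 d against 1, 3 and 8 in snap33, and 119, 168 and 108 against 16, 14 and 14 at 12 d. Every library titled snap33 was lower than every library titled wild type. Gene counts summed to 4304441 to 5754570 per library. Levels below are counts-per-million values (CPM) after TMM scaling, as mean ± SD over 3 libraries.

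The family lies mostly on 1 chromosome. In the TAIR10.1 annotation, 37 of the 42 genes are on chromosome 4, 3 on chromosome 1, and 1 each on chromosomes 3 and 5. The largest group is an array of 20 genes, CRK5 to CRK24, in 74.2 kb at chr4:12117491-12191704. Smaller groups on the same chromosome hold CRK36 to CRK40, CRK30 to CRK34, and CRK28 with CRK29. All 42 are annotated as protein-coding. CRK1 is annotated there as RKF2. CRK9 (annotated as EP1) encodes 265 residues and CRK45 (annotated as ARCK1) 354, whereas the other 40 encode 528 to 1043. CRK45 is known as a cytoplasmic kinase that lacks the extracellular part.

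Stretches upstream of the annotated gene starts are shown for 8 members, because WRKY transcription factors of the salicylic acid response bind W-boxes and because these members include large, moderate and negative differences. CRK5, CRK6, CRK11, CRK36, CRK37, CRK39 and CRK45 were higher in snap33 at 12 d, and CRK21 was lower. Each line is 250 bases, written 5′ to 3′ on the strand of the gene, from the RefSeq TAIR10.1 genome, and capitals mark every W-box, searched as TTGACC or TTGACT on both strands.
CRK5 (chr4:12120221-12120470, minus strand): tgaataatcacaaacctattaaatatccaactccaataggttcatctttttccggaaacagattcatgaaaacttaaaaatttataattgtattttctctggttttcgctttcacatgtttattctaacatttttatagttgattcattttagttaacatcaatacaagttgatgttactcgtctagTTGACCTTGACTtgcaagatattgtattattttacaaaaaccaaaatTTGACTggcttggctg
CRK6 (chr4:12121119-12121368, plus strand): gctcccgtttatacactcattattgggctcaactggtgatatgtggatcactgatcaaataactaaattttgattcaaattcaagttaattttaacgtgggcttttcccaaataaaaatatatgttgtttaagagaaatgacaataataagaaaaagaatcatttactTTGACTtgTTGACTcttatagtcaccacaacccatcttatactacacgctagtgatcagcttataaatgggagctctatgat
CRK11 (chr4:12143859-12144108, minus strand): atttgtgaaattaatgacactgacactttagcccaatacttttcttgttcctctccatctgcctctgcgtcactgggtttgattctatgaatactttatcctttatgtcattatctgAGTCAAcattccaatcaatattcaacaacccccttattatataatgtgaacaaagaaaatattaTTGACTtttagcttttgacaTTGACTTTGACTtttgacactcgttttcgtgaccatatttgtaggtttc
CRK36 (chr4:2234690-2234939, minus strand): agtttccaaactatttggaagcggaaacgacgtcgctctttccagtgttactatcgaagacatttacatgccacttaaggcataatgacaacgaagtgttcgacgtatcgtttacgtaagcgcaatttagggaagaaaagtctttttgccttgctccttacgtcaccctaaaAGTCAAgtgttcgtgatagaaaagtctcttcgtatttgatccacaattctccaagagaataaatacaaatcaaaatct
CRK37 (chr4:2238120-2238369, plus strand): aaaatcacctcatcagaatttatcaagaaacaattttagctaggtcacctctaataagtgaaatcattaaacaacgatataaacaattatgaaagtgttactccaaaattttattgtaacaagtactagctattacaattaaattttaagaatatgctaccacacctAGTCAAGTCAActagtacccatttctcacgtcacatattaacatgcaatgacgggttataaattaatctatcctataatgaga
CRK39 (chr4:2259248-2259497, plus strand): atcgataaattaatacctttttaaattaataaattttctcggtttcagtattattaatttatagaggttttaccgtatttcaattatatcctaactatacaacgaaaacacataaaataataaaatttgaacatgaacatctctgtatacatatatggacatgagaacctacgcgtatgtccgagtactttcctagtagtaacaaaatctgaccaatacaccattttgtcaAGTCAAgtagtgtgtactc
CRK45 (chr4:7147615-7147864, plus strand): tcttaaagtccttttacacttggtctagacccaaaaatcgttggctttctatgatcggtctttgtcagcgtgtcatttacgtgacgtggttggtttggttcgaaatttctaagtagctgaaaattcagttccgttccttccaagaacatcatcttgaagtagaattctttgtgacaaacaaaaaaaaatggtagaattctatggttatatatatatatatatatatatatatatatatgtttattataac
CRK21 (chr4:12180937-12181186, minus strand): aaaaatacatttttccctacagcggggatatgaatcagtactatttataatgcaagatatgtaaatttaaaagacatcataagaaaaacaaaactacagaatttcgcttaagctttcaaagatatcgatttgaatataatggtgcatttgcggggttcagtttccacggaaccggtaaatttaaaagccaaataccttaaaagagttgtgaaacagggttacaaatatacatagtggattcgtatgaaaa

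CRK11 holds 4 such W-boxes, CRK5 holds 3, CRK6 and CRK37 hold 2, and CRK36 and CRK39 hold 1. In CRK37 the 2 matches overlap. CRK45, which was 10.6-fold higher in snap33 at 12 d, and CRK21, which was 2.34-fold lower, have none in this stretch. Across the family, 26 of 42 members (61.9%) hold at least 1 W-box within 250 bases, against 7797 of 27443 protein-coding genes (28.4%). The letters TGACG, bound by TGA factors, stand in 14 members (33.3%) and in 18.6% of all genes. Within the family a W-box was present in 13 of the 23 genes called higher in snap33 at 12 d (56.5%), in 1 of the 3 called lower and in 4 of the 5 not called. Among the 11 members too low to test, 8 held one (72.7%). A match describes these letters only, and no binding was measured.

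Most CRK genes were low in wild type. At 5 d, 33 of the 42 had at least 1 count in wild type and 13 had 10 or more in all 3 libraries. In snap33 at 12 d, 40 had counts and 31 had 10 or more in all 3 libraries. Summed over the family, the level was 210.3 to 215.4 CPM in wild type at 5 d, 213.2 to 217.9 CPM in snap33 at 5 d, 226.3 to 261.0 CPM in wild type at 12 d and 641.4 to 684.5 CPM in snap33 at 12 d. The snap33 libraries of 12 d thus stood above all 9 others, while at 5 d the genotypes overlapped.

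**Figure D1:**
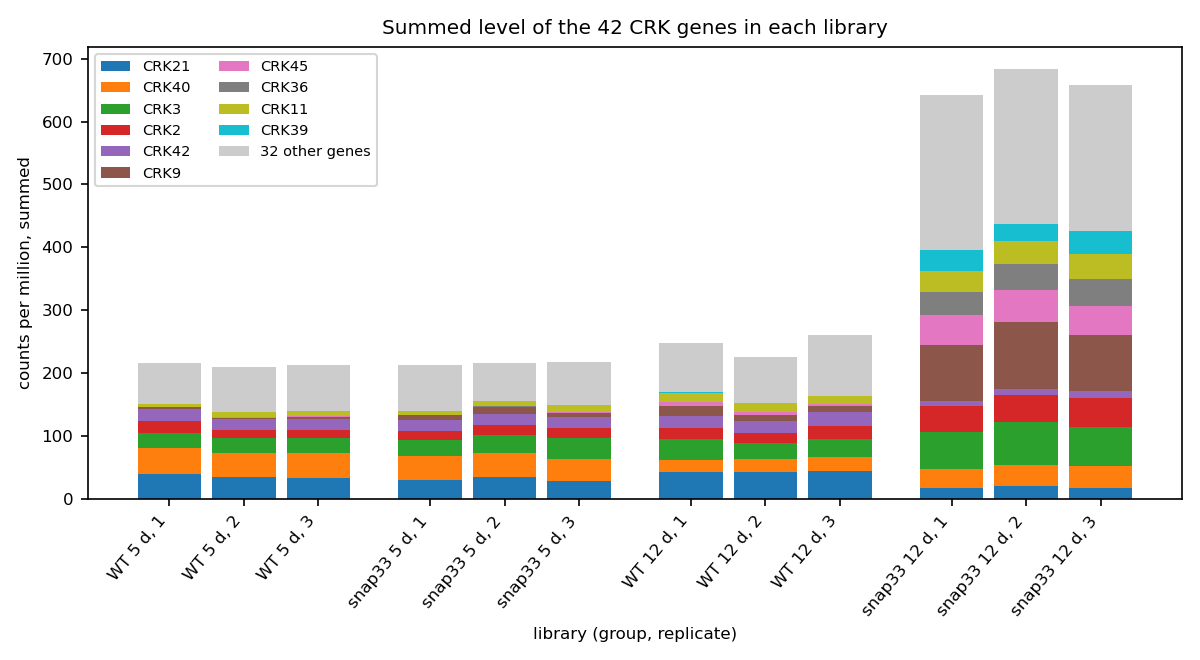
Summed level of the 42 CRK genes in each library, in CPM (y axis), for 3 libraries in each of 4 groups (x axis). Segments are 10 named genes and the sum of the 32 others. The 9 libraries other than snap33 at 12 d lie between 210.3 and 261.0, and the 3 snap33 libraries of 12 d between 641.4 and 684.5.

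Per kilobase of exon, CRK21, CRK40 and CRK3 were the 3 highest members at 5 d in both genotypes. In wild type at 5 d CRK21 had 15.1 ± 1.34 CPM per kb, CRK40 13 ± 0.575 and CRK3 8.16 ± 0.306. The next members were CRK42 (6.35 ± 0.619 CPM per kb) and CRK2 (6.23 ± 1.16), which lay within each other's spread. In wild type at 12 d CRK21 was still first, at 18.2 ± 0.142 CPM per kb, followed by CRK3 (10.1 ± 1.56) and CRK2 (7.54 ± 0.789). In snap33 at 12 d the order was different: CRK9 was first at 52.3 ± 6 CPM per kb, CRK45 second at 28.8 ± 1.26, followed by CRK3 at 21.8 ± 1.82 and CRK2 at 18.3 ± 0.644. CRK36 had rank 5 there with 17.6 ± 1.51 CPM per kb, from rank 24 in wild type of the same age, and CRK21 was at rank 14. These ranks assume reads spread along the exons, but the protocol of snap33 12 d library 1 also names a 3′ format. Without division by length, CRK40 came first in wild type at 5 d (40.1 CPM) and CRK21 second (35.9 CPM). In snap33 at 12 d CRK9 stayed first (95.3 CPM), with CRK3 second (62.7 CPM).

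A gene entered the test where its counts passed a filter at 2.06 CPM in at least 3 libraries of any groups, which 31 members did. Of these, 17 were over that value in all 3 wild-type libraries of 5 d or of 12 d. In the other 14, snap33 at 12 d was the only group with all 3 libraries over it: CRK4, CRK5, CRK6, CRK7, CRK8, CRK12, CRK13, CRK14, CRK28, CRK34, CRK36, CRK37, CRK38 and CRK39. CRK34 was also over it in 2 wild-type libraries of each age and 1 snap33 library of 5 d. CRK6 was also over it in 2 snap33 libraries of 5 d and 1 wild-type library of 12 d. Both would have passed without snap33 at 12 d. The rest of the 14 were selected by the group in which they were high. The remaining 11 were too low: CRK1, CRK15, CRK16, CRK20, CRK23, CRK24, CRK26, CRK27, CRK31, CRK32 and CRK33. CRK1 and CRK33 had 0 counts in all 12 libraries, which allows a level of up to 0.521 to 0.697 CPM in a library (3 counts, counting error only).

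At 5 d, snap33 and wild type differed at 4 CRK genes: CRK6, CRK9 and CRK5 were higher in snap33 and CRK30 was lower. Calls are at an adjusted p under 0.05 in edgeR's quasi-likelihood test, adjusted over all 18830 genes tested. The 3 higher members are 9.68% of the 31 tested, beside 8.22% of all tested genes called higher, and the 1 lower member is 3.23%, beside 4.77%. These shares are near the background. The libraries of the genotypes did not overlap at 6 tested members higher in snap33 and 2 lower, beside 16.7% and 15.3% of all genes. The median log2 fold change was 0.19 over the 31 members, against -0.00 over all genes. It was 0.09 with CRK7 and CRK37, at 0 counts in wild type, set to their bound, and with CRK38 and CRK39 left out. Those last 2 were also at 0 in wild type, and their snap33 counts were too few for a bound.

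CRK6 (AT4G23140), whose mutants respond abnormally to extracellular reactive oxygen, had 0, 1 and 1 counts in wild type at 5 d and 27, 8 and 10 in snap33. Every snap33 library was above every wild-type one, with the first snap33 library the highest. The ratio of levels was 24.5 (95% counting interval 6.4 to 208.5), at an adjusted p of 0.000286 by edgeR. CRK5, whose overexpression gives cell death and altered abscisic acid sensitivity, had 0, 0 and 1 counts in wild type and 9, 2 and 3 in snap33. It too did not overlap, but its ratio of 15.2 had an interval from 2.32 to 644.8, and its adjusted p of 0.0391 rose above the threshold under 10 of 19 other settings, up to 0.216. Among those settings were DESeq2, a block for harvest day, and leaving out any wild-type library of 5 d, snap33 library 1 or 3 of 5 d, or any snap33 library of 12 d.

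CRK9 (AT4G23170), the short-protein member, had 2.23, 1.76 and 3.35 CPM in wild type at 5 d and 7.04, 9.84 and 6.2 CPM in snap33. The groups did not overlap, and snap33 was 3.15-fold higher (log2 1.65, SE 0.31, adjusted p = 0.00129 by edgeR). CRK30 (AT4G11460) went the other way, with 8.71, 10 and 10.3 CPM in wild type and 2.86, 1.92 and 4.29 CPM in snap33. All 3 snap33 libraries were lower, by 3.18-fold on average (log2 -1.67, SE 0.33, adjusted p = 0.00226). CRK6, CRK9 and CRK30 kept their call under all 19 other settings.

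The other well-expressed members were not called at 5 d. The log2 fold change was -0.03 (SE 0.15) for CRK42, 0.02 (SE 0.17) for CRK2 and -0.21 (SE 0.13) for CRK21. It was larger for CRK3 (0.35, SE 0.15, adjusted p = 0.143 by edgeR), whose snap33 libraries all lay above the wild-type ones, and for CRK10 (0.41, SE 0.20) and CRK11 (0.42, SE 0.24), whose libraries overlap. CRK45 had 5, 7 and 10 counts in wild type and 1, 5 and 8 in snap33, which overlap. Some members that were high in snap33 at 12 d were near 0 in both genotypes at 5 d. CRK36 had 1, 0 and 0 counts in wild type and 2, 3 and 1 in snap33, CRK37 had 0, 0 and 0 against 1, 1 and 2, and CRK39 had 0, 0 and 0 against 2, 1 and 0. A difference for these was not detectable at this depth.

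**Figure D2:**
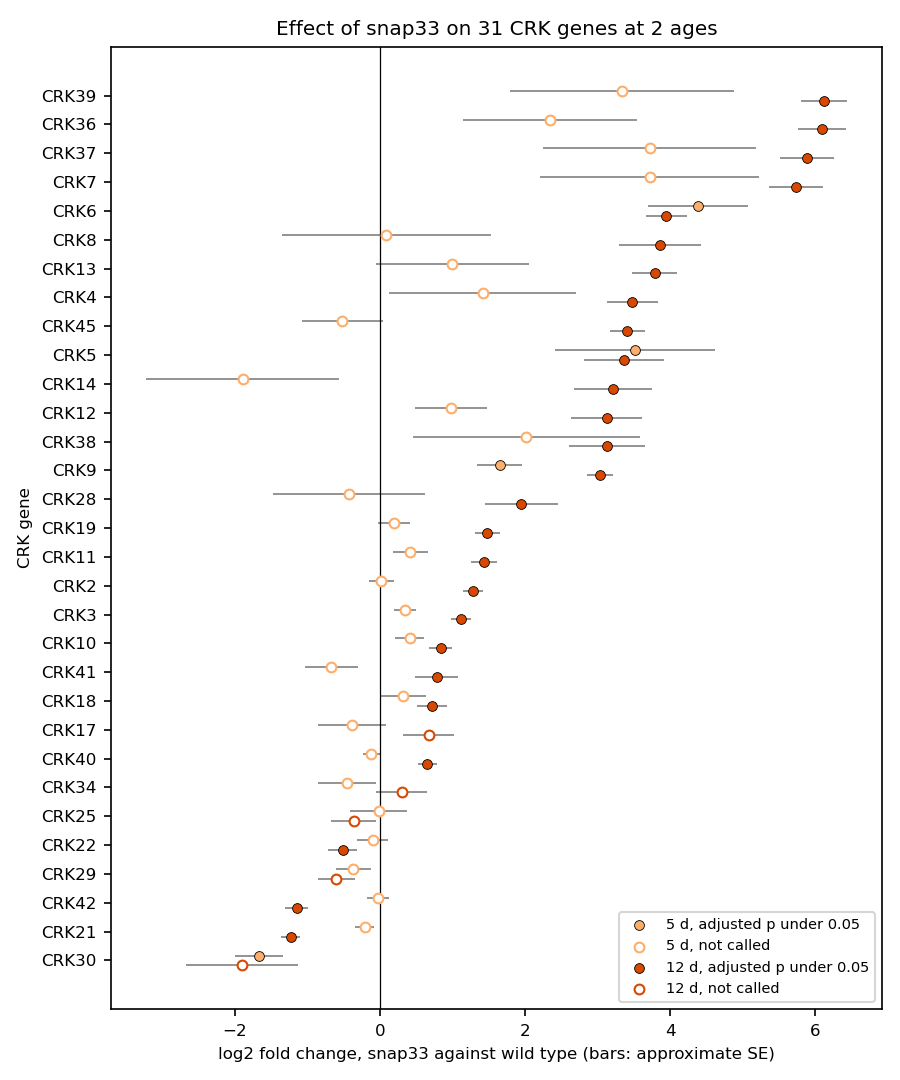
Log2 fold change of snap33 against wild type (x axis) for the 31 CRK genes tested (y axis), at 5 d (light) and 12 d (dark). Bars are the approximate SE and filled points have an adjusted p under 0.05; 4 genes are filled at 5 d and 26 at 12 d, of which 23 lie to the right of 0. Fitted values of genes near 0 counts, such as CRK39 and CRK7 at 5 d, depend on the fit and are no measure of size.

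At 12 d the family was broadly higher in snap33. CRK39, CRK36, CRK37 and CRK7 went from almost no counts in wild type to levels of 19.9 to 40 CPM. The estimates for CRK6, CRK8, CRK13, CRK4, CRK45 and CRK5 were also above 10-fold, and CRK9 became the most abundant member per length. Only CRK21, CRK42 and CRK22 of the tested members were called lower. Of the 31 tested, 23 (74.2%) were called higher, beside 21.1% of all genes, and 3 (9.68%) lower, beside 20.5%. Most of the 14 members named above were tested only because snap33 at 12 d was high. The 17 expressed in wild type, over the filter value in all 3 libraries of an age, were therefore counted apart. Of these, 10 were higher, 3 lower and 4 not called, with a median log2 fold change of 0.72. CRK34 and CRK6, which are outside the 17 but needed no snap33 library of 12 d to pass, were not called and higher, respectively. The median over all genes tested was -0.04. Over all 42 members, filter or not, the 3 snap33 libraries lay above the 3 wild-type libraries at 29 and below them at 3. Among the 31 tested these numbers were 23 and 3, beside 25.0% and 25.2% of all tested genes. With upper-quartile scaling, which set the median of all genes at -0.156, 22 members were higher and 5 lower; all genes then split into 3199 higher and 5186 lower, against 3964 and 3862.

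CRK36 (AT4G04490), which binds the kinase BIK1 and acts with FLS2, had 5, 0 and 4 counts in wild type at 12 d and 197, 222 and 222 in snap33. It had the smallest p of the family, 68.1-fold higher (log2 6.09, SE 0.33, adjusted p = 1.58e-11 by edgeR). Its neighbours on the chromosome moved the same way. CRK39 (AT4G04540) had 3, 1 and 3 counts in wild type and 182, 147 and 186 in snap33, a 69.6-fold difference (log2 6.12, SE 0.32, adjusted p = 5.84e-11). CRK37 (AT4G04500) had 1, 4 and 0 counts against 109, 113 and 98, a 59.4-fold difference (log2 5.89, SE 0.37, adjusted p = 6.46e-10). CRK38 (AT4G04510) had 2, 2 and 1 counts against 12, 18 and 17 and was 8.78-fold higher. In all 4 genes the lowest snap33 library was above the highest wild-type one. CRK40 (AT4G04570), the last gene of that group and the one expressed in wild type, was 1.57-fold higher, with 19.3, 20.4 and 23.5 CPM in wild type and 30.2, 34 and 34.7 CPM in snap33 (log2 0.65, SE 0.13, adjusted p = 0.000432).

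**Figure D3:**
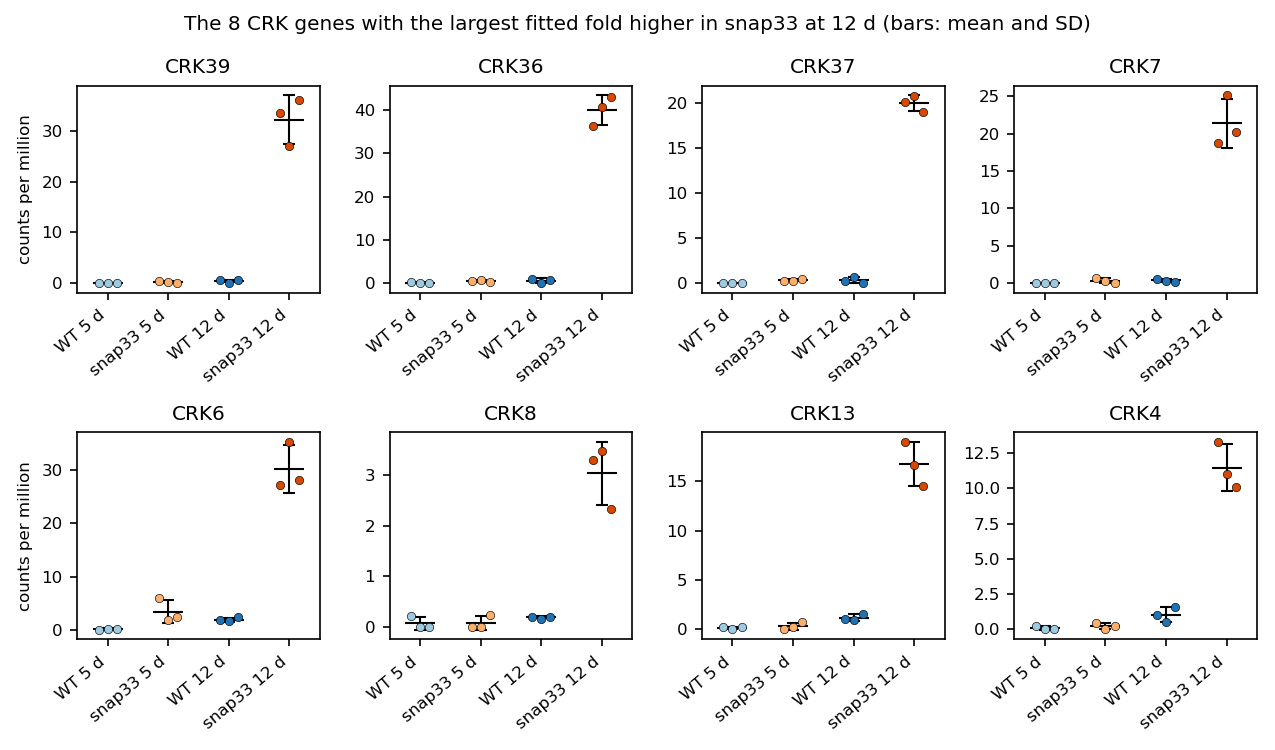
Level in CPM (y axes, different scales) of the 8 CRK genes with the largest fitted fold higher in snap33 at 12 d. Points are the 3 libraries of each group on the x axis, and the lines and bars are their mean and SD. In all 8 panels the 3 snap33 libraries of 12 d lie above the 9 others; their means run from 3.04 CPM (CRK8) to 40 CPM (CRK36).

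CRK7 (AT4G23150), which like CRK6 is tied to extracellular reactive oxygen responses, had 3, 2 and 1 counts in wild type at 12 d and 102, 137 and 104 in snap33. That is a 53.6-fold difference (log2 5.74, SE 0.37, adjusted p = 7.39e-10 by edgeR). CRK6 itself had 9, 10 and 12 counts in wild type and 148, 193 and 145 in snap33, 15.5-fold higher (log2 3.95, SE 0.28, adjusted p = 9.29e-10). CRK8 (AT4G23160) had 1 count in each wild-type library and 18, 19 and 12 in snap33, a ratio of 16.3 (interval 5.27 to 82, adjusted p = 1.91e-05). None of the 3 genes overlapped between genotypes. CRK6 and CRK8 share sequence: 22% of the 50-base windows of CRK6 and 16.5% of those of CRK8 occur elsewhere in the genome, mostly in each other. Reads that fall wholly in such windows have no unique place, and the counts of both genes are uncertain to that extent.

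CRK13 (AT4G23210), whose overexpression gives salicylic acid-dependent resistance to Pseudomonas, had 5, 6 and 8 counts in wild type at 12 d and 103, 91 and 75 in snap33. It was 13.9-fold higher (log2 3.79, SE 0.31, adjusted p = 6.28e-09 by edgeR). CRK4 (AT3G45860), which lies alone on chromosome 3 and causes cell death when overexpressed, had 5, 3 and 8 counts against 72, 60 and 52, 11.2-fold higher (log2 3.48, SE 0.35, adjusted p = 1.15e-07). CRK5 had 2, 0 and 5 counts against 29, 24 and 23, 10.3-fold higher (log2 3.36, SE 0.55, adjusted p = 5.6e-05). These 3 genes, spread over 2 chromosomes, had no overlap between genotypes.

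CRK45 (AT4G11890), a cytoplasmic kinase that is a partner of CRK36 in abscisic acid and osmotic responses, had 5.64, 5.47 and 2.37 CPM in wild type at 12 d and 47.3, 50.9 and 47.1 CPM in snap33. The difference was 10.6-fold (log2 3.41, SE 0.24, adjusted p = 7.06e-10 by edgeR). CRK9 had 15.3, 9.62 and 10.1 CPM in wild type and 89.1, 108.0 and 89 CPM in snap33, 8.22-fold higher (log2 3.04, SE 0.18, adjusted p = 5.54e-11). Both genes were clear of overlap by a wide margin, and both were already expressed in wild type.

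Several other members expressed well in wild type had smaller folds than CRK9 and CRK45. CRK2 (AT1G70520), the RBOHD kinase, had 17.1, 16.9 and 20.3 CPM in wild type at 12 d and 42.7, 43.7 and 45.7 CPM in snap33, 2.43-fold higher (log2 1.28, SE 0.14, adjusted p = 5.29e-07 by edgeR). CRK19 (AT4G23270), which causes cell death when overexpressed, had 10.9, 7.96 and 12.6 CPM against 27.4, 31.1 and 28.5 CPM, 2.78-fold higher (adjusted p = 1.05e-06). The neighbours CRK10 and CRK11, known to be induced by salicylic acid, had folds of this size as well. CRK11 (AT4G23190) had 14.5, 12.8 and 12.6 CPM in wild type and 32.9, 36.1 and 39 CPM in snap33, 2.71-fold higher (adjusted p = 1.88e-06). CRK10 (AT4G23180) had 16.3, 14.9 and 14 CPM against 27.8, 28.7 and 24.2 CPM, 1.79-fold higher (adjusted p = 0.000316). CRK28 (AT4G21400), the BAK1-associated member, was low, with 0, 6 and 9 counts in wild type and 18, 19 and 22 in snap33, and was 3.87-fold higher (adjusted p = 0.00409). The other members called higher were CRK14 (9.25-fold), CRK12 (8.74-fold), CRK3 (2.17-fold), CRK41 (1.72-fold) and CRK18 (1.64-fold). CRK41 lost its call under 6 of 19 other settings (adjusted p up to 0.136): upper-quartile scaling, DESeq2, and without snap33 library 1 or 3 or wild-type library 1 or 2 of 12 d. CRK18 lost it without snap33 library 1 or wild-type library 2 of 12 d (up to 0.0778).

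CRK21 (AT4G23290), the most abundant member per length in wild type, had the smallest p of those lower. It had 42.9, 43.1 and 43.6 CPM in wild type at 12 d and 17.9, 19.9 and 17.4 CPM in snap33, 2.34-fold lower (log2 -1.23, SE 0.13, adjusted p = 2.42e-07 by edgeR). CRK42 (AT5G40380), the only member on chromosome 5, had 19.5, 18.6 and 21.7 CPM against 7.91, 8.42 and 10.7 CPM, 2.21-fold lower (log2 -1.15, SE 0.16, adjusted p = 9.88e-06). All snap33 libraries were below all wild-type ones for both. CRK22 (AT4G23300) had 19.7, 15.6 and 17.7 CPM in wild type and 11.8, 10.6 and 14.9 CPM in snap33, 1.42-fold lower with no overlap but by a narrow margin (log2 -0.51, SE 0.20, adjusted p = 0.0442). That call was lost under 8 of 19 other settings (adjusted p up to 0.169), among them DESeq2, DESeq2 size factors, the harvest-day block and the omission of wild-type library 1 or 3 or snap33 library 1 or 2 of 12 d, or of wild-type library 3 of 5 d. CRK22 and CRK13 share 15.4% to 16.2% of their 50-base windows, yet were called in opposite directions.

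**Figure D4:**
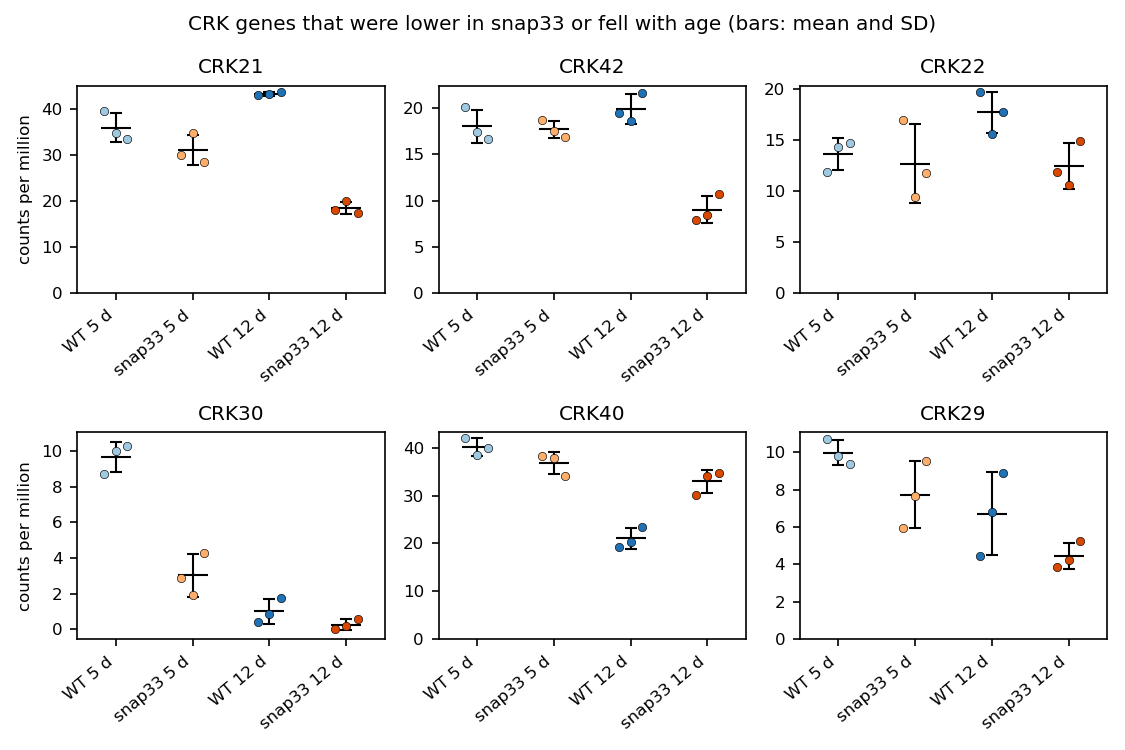
Level in CPM (y axes) of 6 CRK genes that were lower in snap33 or fell with age. Points are the 3 libraries of each group on the x axis, with their mean and SD. CRK21 falls to 18.4 CPM and CRK42 to 9 CPM in snap33 at 12 d, and CRK30 falls from 9.66 CPM in wild type at 5 d to under 2 CPM at 12 d in both genotypes.

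The 5 tested members not called at 12 d were CRK17, CRK25, CRK29, CRK30 and CRK34. CRK17 (AT4G23250, annotated as EMB1290, for embryo defective) had 2.42, 3.48 and 6.11 CPM in wild type and 7.36, 4.76 and 6.98 CPM in snap33, which overlap (log2 0.67, SE 0.35, adjusted p = 0.132 by edgeR). CRK17 and CRK16 overlap by 1190 bases on the same strand, so their reads cannot be fully divided. CRK30 had 2, 5 and 9 counts in wild type and 0, 1 and 3 in snap33 (log2 -1.90, SE 0.77, adjusted p = 0.0542), and was called lower under 8 other settings, the harvest-day block among them (adjusted p = 0.0403). CRK29 had a log2 fold change of -0.60 (SE 0.26, adjusted p = 0.0727), opposite in sign to CRK28, with which it shares 470 bases of same-strand overlap.

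Some members below the low-count filter had unequal counts as well. CRK24 had 0, 1 and 1 counts in wild type at 12 d and 31, 11 and 19 in snap33, a ratio of 30.5 (interval 8.09 to 257.7). CRK23 had 0 counts in wild type and 12, 12 and 6 in snap33, which is at least 10-fold higher with the wild-type group set at a floor of 3 counts. CRK32 had 0 counts in wild type and 4, 7 and 3 in snap33, which is at least 4.67-fold higher. These 3 were singled out after their values were seen. With no low-count filter CRK15, CRK16, CRK23, CRK24, CRK31 and CRK32 were called higher, which brought the count to 29. CRK20 (AT4G23280), whose overexpression gives cell death, had 5, 1 and 3 counts in wild type and 4, 6 and 4 in snap33 and was not called in that fit (adjusted p = 0.52). At 5 d CRK20 had 6, 5 and 7 counts in wild type and 3, 2 and 2 in snap33 (adjusted p = 0.303 in that fit). At 12 d CRK26 (adjusted p = 0.0646) and CRK27 (adjusted p = 0.838) were not called either.

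Along the array of CRK5 to CRK24, calls differed by position. The first 10 genes, CRK5 to CRK14, were all tested and all called higher at 12 d. In 7 of these, snap33 at 12 d was the only group with all 3 libraries over the filter value. Except for CRK6, those 7 had been tested only because that group was high. CRK9, CRK10 and CRK11 are the 3 that wild type also expressed. Of the next 5, CRK15 and CRK16 were too low, CRK17 was not called, and CRK18 and CRK19 were higher. Of the last 5, CRK21 and CRK22 were lower while CRK20, CRK23 and CRK24 were too low. Whether the array differed from the members elsewhere was not tested.

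**Figure D5:**
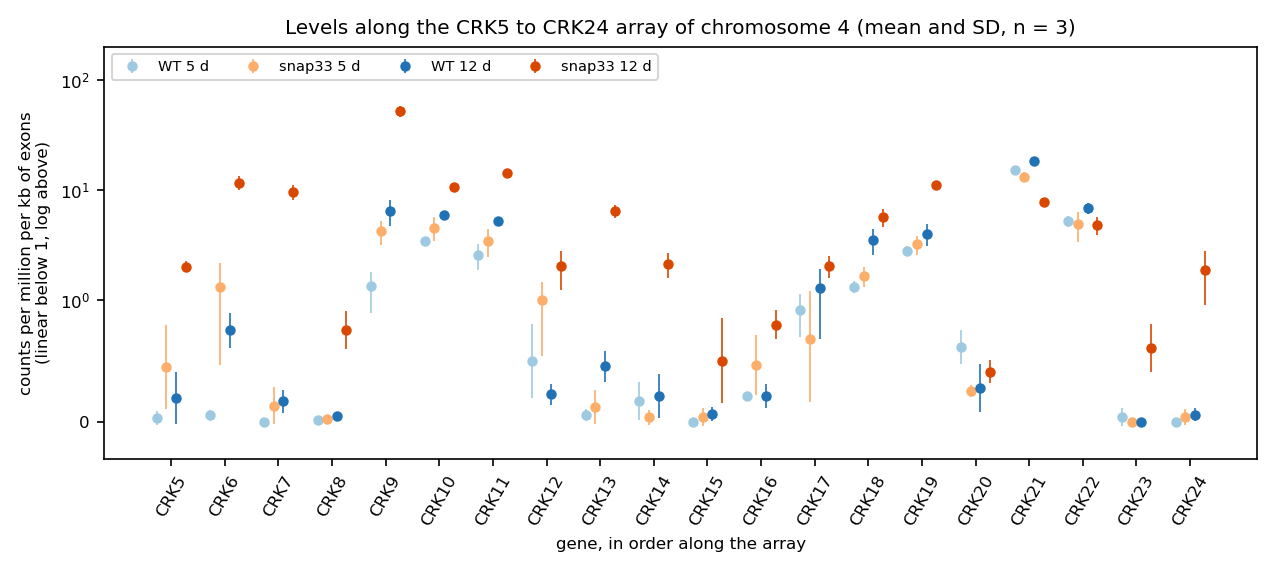
Mean level with SD (n = 3) in CPM per kilobase of exon (y axis, linear below 1 and logarithmic above) for the 20 genes of the array in their order on chromosome 4 (x axis), in 4 groups. In snap33 at 12 d (dark orange) CRK5 to CRK14 lie above the other groups, CRK9 reaches 52.3, and CRK21 is lower than in wild type (7.75 against 18.2).

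Whole seedlings hold many cell types, and fewer cells of a type cannot be told apart from less RNA per cell. At 12 d the 4 shoot markers (summed 8692.0 to 9713.6 CPM in wild type and 5796.0 to 6602.2 CPM in snap33) and the 5 root markers (140.8 to 255.2 CPM and 84.3 to 86.2 CPM) were all called lower in snap33. At 5 d no shoot marker and 2 of 5 root markers were. Of all genes, 20.5% were called lower at 12 d and 4.77% at 5 d. The senescence marker SAG12 had 0 counts in all 12 libraries. The flower marker AP1 had 1 count in all, in wild type of 12 d. The summed flower markers, mostly PI, spanned 30.7 to 37.1 CPM in wild type of 12 d, against 21.2 to 21.3 CPM in snap33. At 5 d the order was the opposite, 9.61 to 13.8 CPM in wild type and 17.6 to 72.9 CPM in snap33, and PI was called 5.39-fold higher (adjusted p = 0.000319 by edgeR). The part of these shifts in the CRK differences was not tested.

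The difference between the snap33 effects at the 2 ages was tested directly. The effect was larger at 12 d for 10 of the 31 members (32.3%, beside 11.0% of all genes) and smaller, that is more negative, for 2 (6.45%, beside 12.8%); among the 17 expressed in wild type these numbers were 8 and 2. CRK45 had the smallest p: its log2 effect went from -0.52 to 3.41, a difference of 3.93 (SE 0.63, adjusted p = 0.000171 by edgeR). CRK2 (difference 1.26, SE 0.22, adjusted p = 0.000341), CRK19 (1.28, SE 0.28, adjusted p = 0.00242) and CRK40 (0.77, SE 0.18, adjusted p = 0.00361) also differed. For CRK21 the difference was -1.02 (SE 0.18, adjusted p = 0.00044) and for CRK42 -1.12 (SE 0.22, adjusted p = 0.00115). These 6 kept their call under all 18 other settings. Without wild-type library 2 of 5 d, 6 members instead of 10 had a larger effect. For members near 0 at 5 d, such as CRK36 (adjusted p = 0.291) and CRK39 (adjusted p = 0.872), the difference could not be measured. CRK6 and CRK5 had 2 and 1 counts in wild type at 5 d. Their differences between ages were not called (-0.43 and -0.16) and could not be measured well either.

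In wild type, 12 of the 31 members (38.7%) rose from 5 d to 12 d, beside 21.5% of all genes, and 2 (6.45%) fell, beside 19.2%. Of the 17 expressed in wild type, 5 rose and 2 fell. The others that rose, apart from CRK6, had passed the filter through snap33 at 12 d alone. The ages did not overlap at 14 tested members that were higher and 3 that were lower at 12 d, beside 25.3% and 23.0% of all genes. CRK9 had the smallest p of those that rose, from 2.45 ± 0.814 to 11.7 ± 3.16 CPM (4.74-fold, adjusted p = 4.27e-06 by edgeR). CRK45 rose 2.86-fold, CRK18 2.61-fold, CRK11 2.05-fold and CRK10 1.73-fold. CRK6 went from 2 to 31 counts over the group (ratio 13.6, interval 3.45 to 117.0), CRK4 from 1 to 16 (14, interval 2.18 to 587.1) and CRK13 from 2 to 19 (8.31, interval 2.01 to 73.6). CRK39 went from 0 to 7 counts, CRK7 from 0 to 6, and CRK37 and CRK38 from 0 to 5, at least 2.04-, 1.75- and 1.46-fold higher. The calls of those last 4 rest on very few reads. CRK39 lost its call under 4 of 18 other settings (without wild-type library 1 or 3 of 12 d or 2 of 5 d, and with only the 2 groups compared). CRK7 lost it under 5, with only the 2 groups compared and without wild-type library 1 of 12 d or any of 5 d. CRK37 and CRK38 lost it under 13 and 12, among them without wild-type library 1 or 2 of 12 d, any wild-type library of 5 d and any snap33 library of 12 d. CRK37 also lost it without snap33 library 1 or 2 of 5 d.

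CRK30 and CRK40 fell with age in wild type. CRK30 had 39, 51 and 46 counts at 5 d and 2, 5 and 9 at 12 d, 9.48-fold lower (log2 -3.25, SE 0.39, adjusted p = 2.76e-06 by edgeR). In snap33 it went from 13, 8 and 18 counts to 0, 1 and 3, 11.1-fold lower (adjusted p = 0.000114). CRK40 had 42, 38.4 and 40 CPM in wild type at 5 d and 19.3, 20.4 and 23.5 CPM at 12 d, 1.9-fold lower (log2 -0.93, SE 0.13, adjusted p = 1.21e-05). In snap33 CRK40 lay between 30.2 and 38.3 CPM in all 6 libraries, with a log2 change of -0.16 (SE 0.12, adjusted p = 0.294); upper-quartile scaling called it lower (log2 -0.30, adjusted p = 0.0435). Within snap33, 23 members (74.2%) rose with age, beside 28.2% of all genes, and 4 (12.9%) fell, beside 26.6%. Here too, 14 members lay outside the 17 expressed in wild type, and most of them were tested only because snap33 at 12 d was high. Of those 17, 10 rose and 4 fell. Among the 31 tested, the ages of snap33 did not overlap at 23 members higher and 4 lower at 12 d, beside 32.4% and 30.6% of all genes. The 4 that fell were CRK30, CRK42 (1.97-fold), CRK29 (1.73-fold) and CRK21 (1.68-fold). CRK29 lost that call without snap33 library 1 of 12 d or 3 of 5 d (adjusted p up to 0.0888). CRK17, not called between genotypes, rose 2.92-fold within snap33 (adjusted p = 0.00318).

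Genes that act with CRKs were set beside them. Of 8 signalling partners, 7 were higher in snap33 at 12 d, beside 21.1% of all genes, and none lower, beside 20.5% (median log2 0.91). SOBIR1, a kinase adaptor of receptor-like proteins, was 5.68-fold higher (adjusted p = 1.48e-11 by edgeR), the chitin receptor CERK1 2.13-fold and BAK1 1.75-fold. FLS2 was not called (log2 -0.10, SE 0.29). RBOHD, the substrate of CRK2, had 74, 96 and 106 counts in wild type and 176, 203 and 180 in snap33 (2.02-fold, adjusted p = 3.22e-05). At 5 d SOBIR1 alone of the 8 was called (1.46-fold higher, adjusted p = 0.017), beside 8.22% of all genes called higher.

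Relatives with the same DUF26 domain were called in both directions. Of the 8 plasmodesmata-located proteins, which carry DUF26 repeats but no kinase, PDLP5 was 3.6-fold higher at 12 d (adjusted p = 1.83e-08 by edgeR), PDLP1 was 3.34-fold higher and PDLP2 was 1.62-fold lower. The other 5 were not called, and the median log2 fold change was -0.48. With 2 of 8 higher and 1 lower, beside 21.1% and 20.5% of all genes, these calls were near the background. PDLP1 was the one called at 5 d (2.97-fold higher, adjusted p = 0.0173), beside 8.22% of all genes called higher. The 13 genes whose annotation holds the words cysteine-rich repeat secretory protein had 0 counts in all libraries. Secretory relatives annotated in other words were not searched for. Of 10 regulators of salicylic acid response, 6 were higher at 5 d, beside 8.22% of all genes, and 9 at 12 d, beside 21.1%, with medians of 0.64 and 2.79 in log2. WRKY46, a W-box-binding factor, was 5.94-fold higher at 5 d (adjusted p = 4.85e-07), and SARD1 and WRKY40 were 4.23-fold and 3.76-fold higher. At 12 d the smallest p-values were those of WRKY70 (22.1-fold), ICS1, the enzyme of salicylic acid synthesis (10.5-fold), and WRKY46 (14.9-fold). TGA2 was not called at either age.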

How the data were processed

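Polyadenylated RNA of whole seedlings was sequenced as stranded single reads, per the labels' protocols; the protocol of snap33 12 d library 1 also names a 3′ format. Alignment used STAR and the TAIR10 genome, per the submitters' processing notes; the sources used here give no version, annotation or strand setting. The deposited values are raw counts per gene, without normalization by the authors. Lines of reads not assigned to a gene (9.256% to 12.15% per library, of which 5.24% to 7.72% not uniquely placed) were left out.

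Tests were run in edgeR 4.0.16 under R 4.3.3 (quasi-likelihood, TMM, default low-count filter, Benjamini-Hochberg adjustment over 18830 genes), in 1 fit of 12 libraries with a mean per group. SE is approximate, from the log2 fold change and its F statistic; for genes near 0 counts it is no measure of precision. Intervals are exact at 95% and, like the floor of 3 counts, cover counting error only. Alternatives were upper-quartile scaling, DESeq2 1.42.0 and its size factors, no filter, 2 blocks, only the 2 groups compared, and leaving out each library. Replicates differed beyond sampling noise (chi-square per degree of freedom 1.59 to 9.98).

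The members and lists were chosen with earlier results of these data known. Named with values in every library are members called at 5 d, the 8 largest folds higher and all lower at 12 d, the 6 smallest p for the difference between ages, the largest folds with age in wild type, and members of known role. The labels pair same-numbered libraries of an age by harvest day, although their deviations from the group means did not correlate (r from -0.25 to -0.00). Gene positions and upstream sequences come from RefSeq TAIR10.1, matched by locus code for all 42 members; 10 members overlap an annotated neighbour.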

Additional observations from a re-analysis of the deposited data

Results flagged for a closer look

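For 12 CRK genes the effect of snap33 differed between 5 d and 12 d in the test of the difference itself (edgeR's quasi-likelihood test, adjusted over all genes, n = 3 libraries per group). The difference of the log2 effects, 12 d minus 5 d, was 3.93 for CRK45, 1.26 for CRK2, 1.28 for CRK19, 0.77 for CRK40, 0.77 for CRK3, 1.02 for CRK11, 1.39 for CRK9, 1.45 for CRK41, 2.14 for CRK12 and 5.10 for CRK14. It was -1.02 for CRK21 and -1.12 for CRK42. The values of CRK14 rest on 5 counts in wild type and 1 in snap33 at 5 d. Calls lost when a library was left out or the setting changed were those of CRK9 (without wild-type 5 d library 3, adjusted p = 0.101), CRK11 (without snap33 library 1 or wild-type library 2 or 3 of 5 d, up to 0.0661) and CRK14 (without wild-type library 1 or 2 of 5 d, up to 0.121). CRK41 lost its call without any of 7 libraries (up to 0.11): wild-type 2 and 3 and snap33 1 and 3 of 5 d, wild-type 2 and snap33 1 and 3 of 12 d. CRK12 lost it under 10 of 18 settings (up to 0.216): upper-quartile scaling, DESeq2, and without wild-type 1 or 2 or snap33 2 or 3 of 5 d, or wild-type 2 or 3 or snap33 1 or 2 of 12 d.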

How the results depend on the processing

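Of 83 called results for single CRK genes, 68 kept their call under all alternatives run, 15 lost it under at least 1 and 0 reversed. Members lower in snap33 at 12 d numbered 5 with upper-quartile scaling, against 3; the cause was not tested. Members with an effect larger at 12 d numbered 6 to 11 when single libraries were left out, with 6 without wild-type 5 d replicate 2, against 10. With the harvest-day replicate block, 2 members were higher at 5 d (CRK5 was lost), 23 were higher and 3 lower at 12 d (CRK22 was lost and CRK30 gained, with adjusted p = 0.064 and 0.0403 by edgeR), and it changed no other member's call between genotypes. The block of replicate number over both ages gave 10 members that rose (CRK37 and CRK38 were lost) and 3 that fell (CRK29 was gained) with age in wild type. Leaving out single libraries gave 2 to 3 members higher at 5 d, 21 to 26 higher and 2 to 4 lower at 12 d, and 8 to 14 that rose with age in wild type. Members near 0 in wild type or at 5 d are limited by depth.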
